A study of Mus musculus with 36 samples.

Results

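The genes examined were 34 markers of cortical layer identity, of 52636 genes measured by RNA sequencing. The tissue was needle punches of right-hemisphere anterior cingulate cortex (aCC), a field of the medial frontal wall. Members were listed by name and not by a cut on measured values, but with earlier results of these data known. There were 12 upper-layer members, 9 layer 5 members, 9 layer 6 members and 4 members expressed across layers. Each of the 36 libraries came from 1 female mouse on the C57BL/6NTac background, 8 to 11 weeks old, either wild type (WT) or heterozygous for a targeted deletion in Brd1 (Brd1+/-), a gene encoding a chromatin reader of histone acetyltransferase complexes. Injections held either saline (vehicle) or 10 mg/kg of the tricyclic drug imipramine (IMN), and mice of all 4 groups swam in a forced swim test shortly before the brains were taken. Among WT mice 8 had vehicle and 10 had IMN, and among Brd1+/- mice 9 had vehicle and 9 had IMN. The deletion was carried in all cells of 1 mouse line from before birth, so effects in adult cortex and effects of development cannot be told apart in it.

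The neocortex is built of layers of excitatory neurons with different targets. Upper-layer neurons send their axons mainly to other cortical areas. Layer 5 neurons project to the striatum, brainstem and spinal cord, layer 6 neurons to the thalamus, and a thin sheet of layer 6b neurons borders the white matter. The aCC is known as agranular cortex, in which the thalamus-recipient layer 4 is thin or absent. A needle punch takes a column of tissue, and the share of each layer and of the white matter below enters its RNA. In such bulk RNA, fewer cells of a type and less RNA per cell cannot be told apart.

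The labels name no sequencing batch. The libraries resembled each other across genes, with Pearson's r of log2(TPM + 0.5) between 0.977 and 0.989 over 630 pairs, and 0 pairs were identical. TPM (transcript abundances) scale each library to the same total and correct for transcript length, so levels can be set side by side between genes, but they keep no record of depth. The targeted gene was lower in the heterozygotes: with vehicle, Brd1 averaged 26.4 ± 3.03 TPM (SD) over 8 WT mice and 16.8 ± 2.72 TPM (SD) over 9 Brd1+/- mice. Over both treatments its log2 fold change was -0.54 (SE 0.067, limma adjusted p = 2.83e-05). Within treatments it was -0.64 with vehicle (SE 0.095, limma adjusted p = 0.062) and -0.45 under IMN (SE 0.091, limma adjusted p = 0.88). Neither passed an adjusted p of 0.05. In genotype comparisons within a treatment, not passing adjustment thus does not show that a gene is unchanged. As a check of the tissue label, 4 markers of forebrain excitatory neurons (Slc17a7, Neurod6, Camk2a and Nrgn) summed to between 2678 and 5937 TPM, and none was at 0 in all libraries of a group. Several libraries stood apart in the layer genes or in markers of neighbouring tissue. WT vehicle replicate 1 had the lowest upper-layer content of its group and a summed level of 10 oligodendrocyte markers of 2710 TPM, against a median of 396 TPM in WT vehicle. WT IMN replicate 7 had 3342 TPM of these markers and the highest layer 6b signal. Brd1+/- IMN replicate 6 had nearly as much of the oligodendrocyte markers, 3267 TPM. Brd1+/- vehicle replicate 6 held 1699 TPM of 12 striatal markers, where no other library exceeded 467 TPM, and 3929 TPM of 8 choroid plexus markers, where the other libraries lay between 0.915 and 40.5 TPM. Some differences between groups rest on WT vehicle replicate 1, Brd1+/- vehicle replicate 6 or WT IMN replicate 7. The main ones are given with and without them for the axis or the layer classes.

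Upper-layer members covered a wide range of levels. Lamp5, a lysosome-associated membrane protein of neurons, was the most abundant, with a mean of 235 TPM over 36 libraries and a range from 114 to 482 TPM. Cux2 (ENSMUSG00000042589, GRCm38 chromosome 5, bases 121856366 to 122050102, minus strand) encodes a homeodomain factor of layer 2 to 4 neurons and averaged 90.6 TPM. Its lowest library was WT vehicle replicate 1 (9.86 TPM) and its highest Brd1+/- vehicle replicate 1 (198 TPM), a 20.1-fold span. The related factor Cux1 averaged 31.5 TPM and spanned only 2.37-fold. Rasgrf2, an exchange factor for Ras-family proteins, averaged 85.3 TPM, and Calb1, the calcium buffer calbindin, 67.9 TPM. Wfs1, an endoplasmic reticulum membrane protein, averaged 59.7 TPM. Otof (ENSMUSG00000062372, chromosome 5, bases 30367062 to 30461932, minus strand) encodes otoferlin, a calcium sensor of vesicle release. It averaged 13.7 TPM but ran from 0.0525 to 32.8 TPM. The POU factors Pou3f2 and Pou3f3 averaged 10.4 and 27.0 TPM, and Unc5d, a netrin receptor, 5.90 TPM. Both genes known for layer 4 were low. Rorb (ENSMUSG00000036192, chromosome 19, bases 18930605 to 19111196, minus strand), a nuclear receptor of layer 4 neurons, averaged 4.58 TPM, and Scnn1a, a sodium channel subunit, had a median of 1.12 TPM.

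Among the layer 5 members, Pcp4, a calmodulin-binding peptide, averaged 357 TPM with a range from 133 to 1398 TPM. Sulf2, an enzyme that trims heparan sulfate, averaged 107 TPM. Fezf2 (ENSMUSG00000021743, chromosome 14, bases 12342094 to 12348189, minus strand) encodes the zinc finger factor that specifies subcortically projecting neurons and averaged 64.6 TPM. Its partner in that programme, Bcl11b (also known as Ctip2), averaged 18.5 TPM. Etv1, an ETS factor of layer 5, averaged 41.9 TPM. Parm1, a membrane glycoprotein, averaged 33.1 TPM, and Tshz2, a zinc finger factor, 30.7 TPM with a 68.9-fold span. The transcriptional repressor Bcl6 averaged 18.7 TPM and Deptor, an inhibitor of mTOR kinase, 8.47 TPM.

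Layer 6 members were mostly low at the median and high in a few libraries. Tbr1, a T-box factor of layer 6 neurons, was the most abundant with a mean of 72.7 TPM and the narrowest span, 4.41-fold. Tle4 (ENSMUSG00000024642, chromosome 19, bases 14448150 to 14598051, minus strand), a Groucho-type corepressor of corticothalamic neurons, had a median of 12.1 TPM and a maximum of 53.3 TPM. Syt6 (ENSMUSG00000027849, chromosome 3, bases 103575231 to 103645569, plus strand), a synaptotagmin, had a median of 3.28 TPM and an 18.2-fold span. Foxp2, a forkhead factor, had a median of 1.32 TPM and reached 18.5 TPM in WT vehicle replicate 1. Rprm, a regulator of the cell cycle, had a median of 14.3 TPM and reached 164 TPM in WT IMN replicate 7. Hs3st4, a heparan sulfate sulfotransferase, had a median of 13.7 TPM, and Sox5, an SRY-box factor of deep-layer neurons, 8.06 TPM. The layer 6b genes Nxph4, a neurexophilin, and Cplx3, a complexin, had medians of 0.523 and 5.41 TPM. Their highest library was again WT IMN replicate 7, with 18.5 TPM of Nxph4 and 40.6 TPM of Cplx3. Nxph4 was listed at 0 in 2 libraries, WT vehicle replicate 3 and WT IMN replicate 6.

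Of the 4 members found across layers, the LIM-domain factor Lmo4 averaged 388 TPM, the highest of the 34. The forkhead factor Foxp1 averaged 60.9 TPM, the thyroid hormone-binding protein Crym 66.1 TPM and the pseudokinase Trib2 24.2 TPM. All 34 members passed the filter on low values (at least 0.1 TPM in at least 8 libraries), and 33 of them had a median of at least 1 TPM. Lamp5, Calb1, Cplx3, Bcl11b, Foxp2, Tle4 and Pcp4 also mark interneurons or striatum, so they are not specific to cortical layers.

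**Figure D1:**
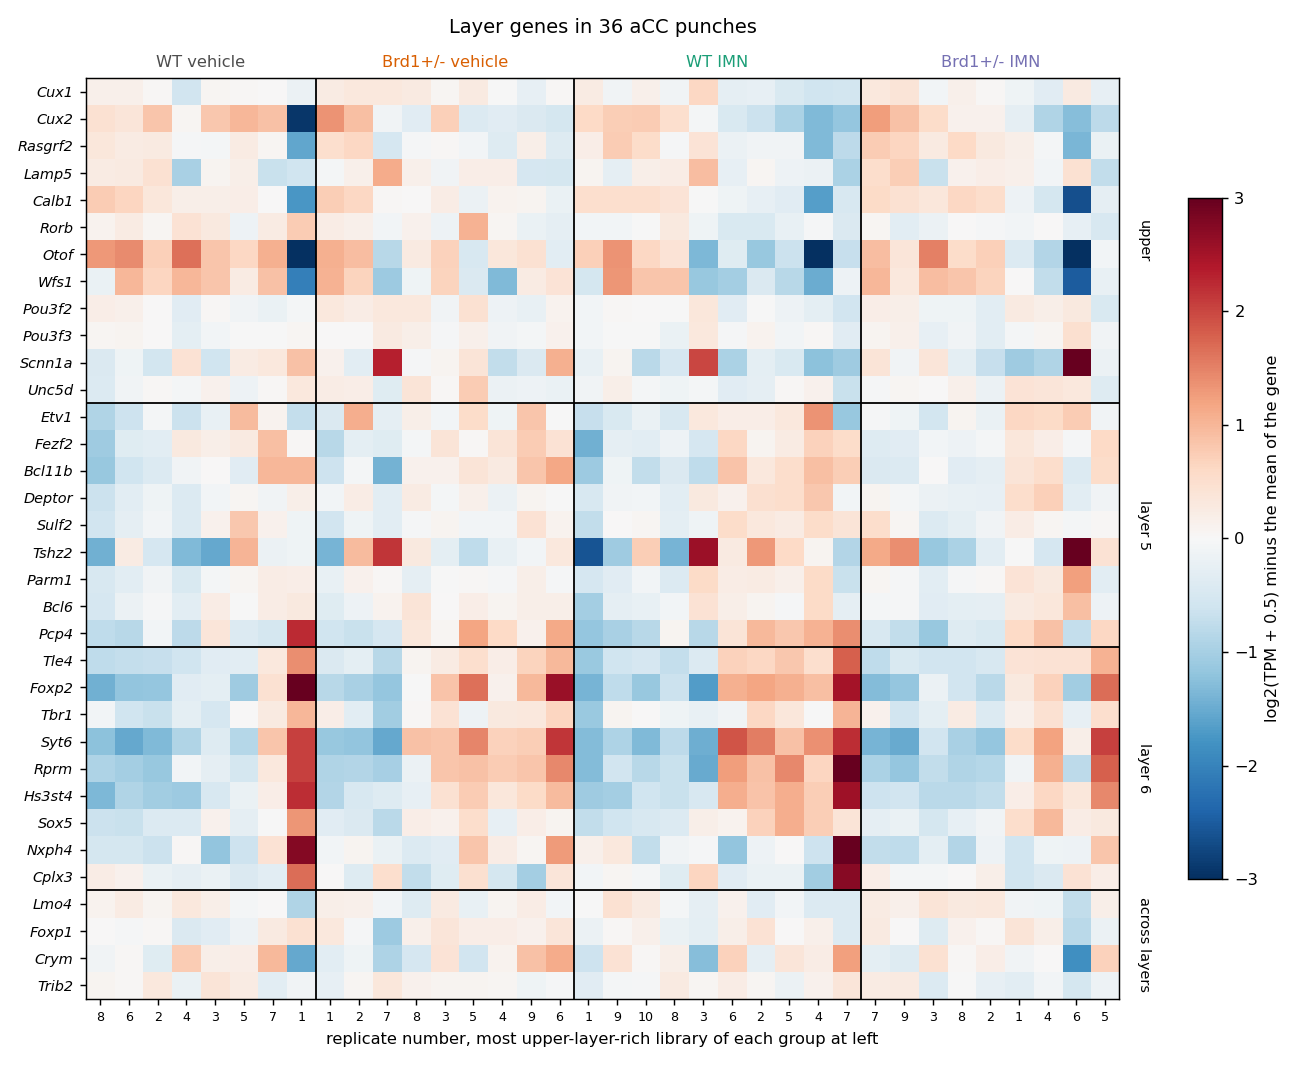
Level of each of the 34 members (rows, by layer) in each of the 36 libraries (columns, by group, ordered within a group from the most upper-layer-rich library at left), as log2(TPM + 0.5) minus the mean of that gene (colour scale cut at -3 and 3). Most layer 6 genes tend from blue to red from left to right, Cplx3 least clearly, while Cux2, Rasgrf2 and Calb1 tend the other way. WT vehicle replicate 1 and WT IMN replicate 7 end their groups.

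Layer genes varied more between mice of the same group than most genes did. The median SD within groups was 0.578 on the log2 scale over the 34 members and 0.251 over the 17696 tested genes whose mean reached 1 TPM. The widest were Otof (SD 1.42), Syt6 (1.33), Foxp2, Tshz2 (1.24) and Rprm (1.15). Pou3f3 was the most even, with an SD of 0.17. Trib2 (0.23) and Pou3f2 (0.24) were nearly as even.

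This variation ran along an upper-to-deep axis. The axis was measured in each library as the mean log2(TPM + 0.5) of the 12 upper members minus that of the 18 layer 5 and layer 6 members (a common scale factor of a library cancels in it, apart from the pseudocount of 0.5). It ran from -1.68 in WT vehicle replicate 1 to 1.45 in WT IMN replicate 1, and 11 of 36 libraries lay below 0. Among the scores that enter it, that of layer 6 had an SD within groups of 0.80, that of layer 5 0.40 and that of the upper members 0.36. Each member was then set against the axis computed without that member, after removing group means, as a description over 36 libraries. All 9 layer 6 members and all 9 layer 5 members went down as the axis went up. Hs3st4 (r = -0.952), Tle4 (r = -0.951) and Syt6 (r = -0.896) were the closest, and Cplx3 (r = -0.263), Etv1 (r = -0.228) and Tshz2 (r = -0.136) the loosest. Of the 12 upper members, 9 went up with the axis, led by Cux2 (r = 0.861), Rasgrf2 (r = 0.794) and Calb1 (r = 0.773). The others were Scnn1a, Pou3f3 and Unc5d, with r between -0.089 and -0.041, and Rorb was also near 0 (r = 0.058). Lmo4 followed the upper members (r = 0.681), whereas Trib2 (r = 0.058), Crym (r = -0.075) and Foxp1 (r = -0.188) did not follow either end. Without WT vehicle replicate 1 and Brd1+/- vehicle replicate 6 the values were -0.934 for Hs3st4, -0.941 for Tle4 and 0.813 for Cux2, while that of Cplx3 was -0.033. All points share 1 TPM scale per library.

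Members of the same deep layer moved together more closely than upper members did. All 36 pairs of layer 6 members had a positive correlation across libraries, with a median r of 0.74, and 34 of 36 layer 5 pairs were positive with a median of 0.52. Among upper members 40 of 66 pairs were positive, with a median of 0.14. Between classes, 63 of 81 layer 5 with layer 6 pairs were positive, against 29 of 108 upper with layer 5 pairs and 11 of 108 upper with layer 6 pairs, whose median r was -0.33. The upper list thus held genes that did not vary as 1 block.

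For 8 gene pairs the relation across the 36 mice was tested, on values centred on their group means, with permutations within groups (100000 draws, two-sided, Benjamini-Hochberg over the 8 pairs). The pairs, like the other tests, were chosen with earlier results of these data known. Tle4 and Syt6, both of layer 6, had r = 0.93 (rho = 0.90, permutation p = 1e-05, the smallest possible, adjusted 2.67e-05), and r was 0.93 without the 2 mice farthest in Tle4. Cux2 and Otof, both upper, had r = 0.81 (rho = 0.77, permutation p = 1e-05, adjusted 2.67e-05) and r = 0.70 without the 2 farthest mice. Fezf2 and Tle4, of layers 5 and 6, had r = 0.72 (rho = 0.82, permutation p = 1e-05, adjusted 2.67e-05), and r = 0.70 without the 2 farthest mice. These pairs rose and fell together from punch to punch. Cux2 and Tle4 were opposed, with r = -0.77 (rho = -0.75, permutation p = 2e-05, adjusted 3.2e-05), and r = -0.72 without the 2 farthest mice. Cux2 and Fezf2 were opposed less closely, with r = -0.43 (rho = -0.56, permutation p = 0.0169, adjusted 0.0193), and r = -0.56 without the 2 farthest mice. For Foxp2 and Adora2a, a striatal receptor gene, r was 0.30 (rho = 0.02, permutation p = 0.0693), 0.27 without the 2 farthest mice and 0.01 without Brd1+/- vehicle replicate 6.

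Myelin genes moved with the deep layers. Mbp, the myelin basic protein, had r = 0.77 with Tle4 (rho = 0.71, permutation p = 2e-05, adjusted 3.2e-05) and r = -0.75 with Cux2 (rho = -0.69, permutation p = 3e-05, adjusted 4e-05). Without the 2 farthest mice these were 0.66 and -0.64. As a description over 36 libraries, the score of 10 oligodendrocyte genes had r = -0.845 with the axis, and r = -0.806 without the 2 libraries named above. The summed level of these 10 genes ran from 176 TPM in the lowest library to 3342 TPM in WT IMN replicate 7, and none was at 0 in all libraries of a group. Brd1+/- IMN replicate 6 had 3267 TPM but lay at -0.46 on the axis, with a layer 6 score of 3.05. WT IMN replicate 7 lay at -1.42, with a layer 6 score of 5.38. The astrocyte score went the other way (r = 0.670), as did the microglia score (r = 0.526). The score of the 4 excitatory markers was nearly flat along the axis (r = 0.105), the striatal score had r = -0.341 and the interneuron score r = -0.383. Which tissue each needle took was not recorded in the labels, and the part of punch position in these relations was not tested.

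**Figure D2:**
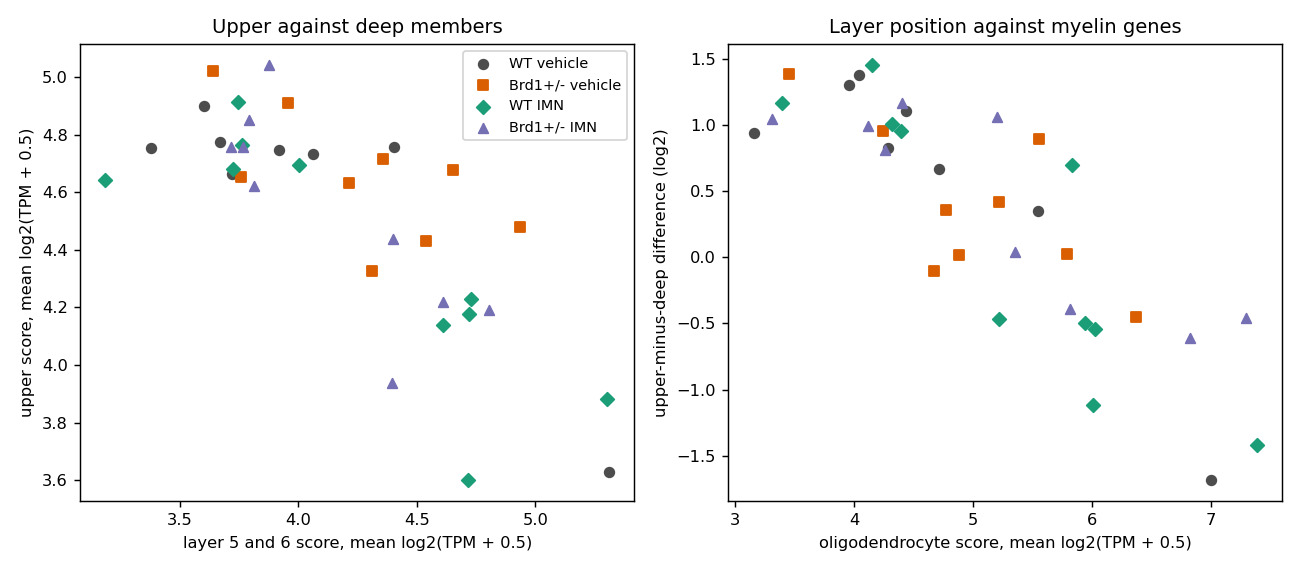
Left, the upper score against the layer 5 and 6 score of each library, both as mean log2(TPM + 0.5). Right, the upper-minus-deep difference against the oligodendrocyte score. Each point is 1 mouse, with colour and shape for its group. The difference falls from above 1 to below -1 as the oligodendrocyte score rises, and the 4 groups share the same cloud.

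Other genes followed the axis as closely as its members. Among 17682 further genes whose mean reached 1 TPM, 178 had r above 0.7 and 471 had r below -0.7. The 10 closest to the upper end were Neurod1 (r = 0.942), Car4 (r = 0.910), Coch, Evc2, Fbxo10, Vip (r = 0.885), Pparg, Itga4, Gm45470 and Dact2 (r = 0.857). Neurod1 is a neuronal basic helix-loop-helix factor and Vip the peptide of an interneuron class that is dense in upper layers. Neurod1 ran from 4.39 to 15.7 TPM and Vip from 24.6 to 121 TPM. The 10 closest to the deep end were Ano4 (r = -0.946), Rnf152 (r = -0.944), Nxph3 (r = -0.939), Retreg1, Pik3r3, Krt80, Efhd2, Diras2, Gm40518 and Limk1 (r = -0.923). Nxph3, a neurexophilin related to Nxph4, ran from 3.71 to 122 TPM. A list of 9 further upper-layer genes had r = 0.762 with the axis and a list of 18 further deep-layer genes r = -0.577.

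A second pattern set 3 libraries apart and did not follow the axis. Scnn1a reached 17.8 TPM in Brd1+/- IMN replicate 6, 8.89 TPM in Brd1+/- vehicle replicate 7 and 6.91 TPM in WT IMN replicate 3, while the other 33 libraries lay between 0.291 and 3.39 TPM. Tshz2 was highest in the same 3 libraries, at 202, 91.2 and 122 TPM, against at most 54.1 TPM elsewhere. Both genes are known for strong expression in retrosplenial cortex, the field behind the cingulate. Lamp5 was at 305, 482 and 423 TPM there, against a median of 236 TPM and a maximum of 370 TPM in the others. Crym was low in these libraries, at 16.4, 31.4 and 24.1 TPM against a median of 64.3 TPM and a minimum of 20.3 TPM in the others. Foxp1 was at 33.8, 27.7 and 48.7 TPM against a median of 64.9 TPM and a minimum of 44.2 TPM. Otof was at 0.0525, 5.38 and 3.67 TPM against a median of 15.0 TPM and a minimum of 0.248 TPM. In each of Crym, Foxp1 and Otof, some of these values thus lay within the range of the others. Their Cux2 was 31.5, 72.0 and 74.5 TPM, within the range of the others. These libraries belong to 3 of the 4 groups, and the position of their punches along the cingulate was not tested. They were chosen for mention after their values were seen.

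The upper-to-deep position of the punches was then set against genotype and treatment. It varied far more within groups than between them: group membership took 4.38% of its variance, and its SD within groups was 0.862. In WT vehicle it ran from -1.68 to 1.37 with a median of 0.88 and a mean of 0.61 ± 0.98 (SD, n = 8). In Brd1+/- vehicle it ran from -0.45 to 1.38 with a mean of 0.39 ± 0.59 (SD, n = 9). In WT IMN it ran from -1.42 to 1.45 with a mean of 0.12 ± 1.04 (SD, n = 10), and in Brd1+/- IMN from -0.61 to 1.17 with a mean of 0.40 ± 0.75 (SD, n = 9). All 4 ranges overlapped. The counts below 0 were 1 of 8, 2 of 9, 5 of 10 and 3 of 9 in the same order.

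With all libraries, every difference of the axis between groups was about the size of its standard error or smaller. IMN minus vehicle was -0.49 (SE 0.48) in WT mice and 0.02 (SE 0.32) in Brd1+/- mice, and -0.23 (SE 0.29) over both genotypes. Brd1+/- minus WT was -0.22 (SE 0.39) with vehicle, 0.28 (SE 0.42) under IMN and 0.04 (SE 0.29) over both treatments. The interaction was 0.51 (SE 0.58). Without the members that also mark interneurons or striatum, Brd1+/- minus WT was -0.26 (SE 0.34) with vehicle and 0.27 (SE 0.40) under IMN. The WT vehicle mean rested on 1 library: without replicate 1 the differences were -0.82 (SE 0.41) for IMN in WT and -0.55 (SE 0.25) for genotype with vehicle, about 2 times their standard errors, both with WT vehicle at the upper end. Replicate 1 was the lowest of the 36 libraries on this axis, so leaving it out both raises the WT vehicle mean and narrows the SE. Without WT IMN replicate 7, the lowest of its group, IMN in WT was -0.32. IMN in WT and genotype with vehicle had the opposite sign with all libraries and covariates for the striatal and oligodendrocyte scores. They were then 0.05 (SE 0.24) and 0.03 (SE 0.24). The oligodendrocyte score had r = -0.845 with the axis, so this fit also takes out part of the axis itself. These comparisons share the WT vehicle libraries.

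**Figure D3:**
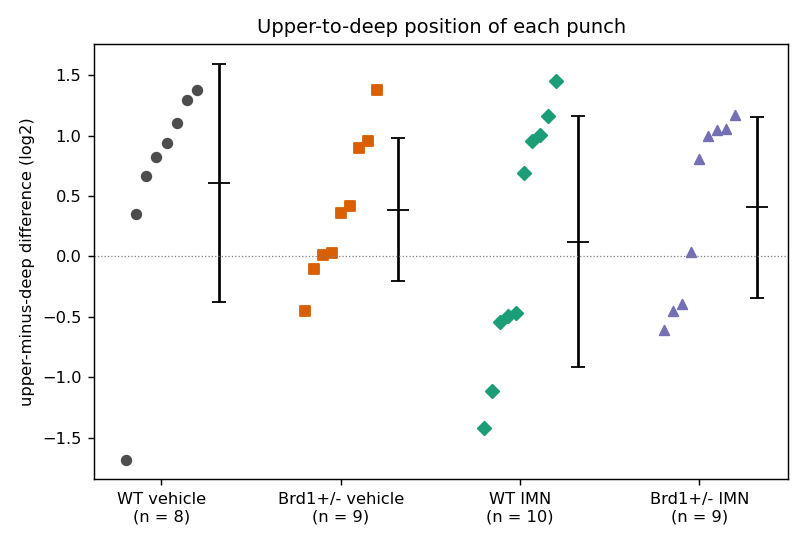
Upper-minus-deep difference (log2) of each library by group, with the mean and SD as a bar beside the points. WT vehicle holds 7 libraries above 0 and 1 at -1.68, WT IMN spans from -1.42 to 1.45, and the groups overlap throughout.

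For single members the question was whether the mean of a layer gene differed with genotype or IMN. The difference was judged against its standard error, which comes from the spread between mice and the group sizes. With vehicle, 0 of 34 members passed an adjusted p of 0.05 for genotype in limma, where 0% of the 25572 genes tested passed, and 0 had an unadjusted p under 0.05, against 3.75% of all genes. The direction, not tested, was higher in Brd1+/- mice for 8 of 12 upper, 8 of 9 layer 5 and 8 of 9 layer 6 members, with 43.7% of all genes higher. The smallest p-values belonged to Etv1, Cux1 and Pou3f2. Etv1 ran from 20.6 to 74.6 TPM (median 29.1) in WT vehicle and from 28.3 to 82.6 TPM (median 38.1) in Brd1+/- vehicle. Its log2 fold change was 0.45 (SE 0.25, exact permutation p = 0.116, limma adjusted p = 1.00), with 7 of 9 Brd1+/- libraries above the WT mean. The ranges overlapped almost fully. Cux1 differed by 0.18 (SE 0.10, exact permutation p = 0.106, limma adjusted p = 1.00) and Pou3f2 by 0.18 (SE 0.11, exact permutation p = 0.112, limma adjusted p = 1.00).

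Under IMN, 0 of 34 members passed for genotype (0% of all genes) and 0 had an unadjusted p under 0.05 (3.23% of all genes). Here 11 of 12 upper members were higher and 9 of 9 layer 6 members lower in Brd1+/- mice, with medians of 0.17 and -0.36, where the median of all genes was 0.01 and 52% of them were higher. Unc5d had the smallest p, with a log2 fold change of 0.21 (SE 0.12, exact permutation p = 0.0923, limma adjusted p = 1.00), followed by Trib2 at -0.19 (SE 0.11, exact permutation p = 0.113, limma adjusted p = 1.00) and Cux1 at 0.17 (SE 0.14, exact permutation p = 0.280, limma adjusted p = 1.00). The 9 layer 6 members correlate with each other, as given above, so their shared sign is not 9 separate observations. Over both treatments 0 of 34 passed (0.00391% of all genes, 1 gene) and 0 had an unadjusted p under 0.05 (3.62% of all genes). Cux1, Pou3f2 and Unc5d led there by p, with log2 fold changes of 0.18 (SE 0.091), 0.15 (SE 0.080) and 0.16 (SE 0.091). Their limma adjusted p-values were all 0.999. The direction, not tested, was higher in Brd1+/- mice for 11 of 12 upper, 7 of 9 layer 5 and 6 of 9 layer 6 members, with 47.3% of all genes higher.

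With IMN, 1 of 34 members, Rorb, had an unadjusted p under 0.05 in WT mice and over both genotypes, a smaller share than that of all genes (6.6% and 9.38%). In WT mice Rorb ran from 3.96 to 7.88 TPM (median 5.38) with vehicle and from 3.08 to 5.62 TPM (median 4.10) with IMN. In Brd1+/- mice it ran from 3.63 to 9.69 TPM (median 4.69) with vehicle and from 3.04 to 4.68 TPM (median 4.15) with IMN. IMN libraries sat low in both genotypes, with overlap in each. The log2 fold change was -0.41 in WT mice (SE 0.12, exact permutation p = 0.00343, limma adjusted p = 0.542), with 9 of 10 IMN libraries below the vehicle mean. In Brd1+/- mice it was -0.24 (SE 0.14, exact permutation p = 0.0854, limma adjusted p = 0.924), with 9 of 9 below. There it lay between -0.29 and -0.13 without any 1 library. Over both genotypes it was -0.33 (SE 0.094, 95% interval -0.52 to -0.14), rank 257 of 25572 genes, with a limma adjusted p of 0.136 that did not pass and lay between 0.0971 and 0.207 over the alternatives. With the axis, computed without Rorb, as a covariate it was -0.32 (limma adjusted p = 0.144), nearly the same value. Rorb had r = 0.058 with that axis, so this covariate could hardly move the value. The part of layer content in it was not tested. Without any 1 library the value over both genotypes lay between -0.35 and -0.27. The highest single value, 9.69 TPM, was that of Brd1+/- vehicle replicate 5. It raised the vehicle mean below which the 9 of 9 Brd1+/- IMN libraries lay.

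Among all members, IMN in WT mice gave 0 of 34 past the adjusted threshold (0% of all genes) and 1, Rorb, with an unadjusted p under 0.05 (6.6% of all genes). In that comparison 11 of 12 upper members were lower (median -0.13) and 9 of 9 layer 6 members higher (median 0.33), with 45.5% of all genes higher. Deptor differed by 0.29 (SE 0.16, exact permutation p = 0.0973, limma adjusted p = 0.809) and Otof by -0.91 (SE 0.67, exact permutation p = 0.240, limma adjusted p = 0.876). In Brd1+/- mice 0 of 34 passed (0.00782% of all genes, 2 genes) and 0 had an unadjusted p under 0.05 (5.52% of all genes). There 7 of 9 layer 6 members were lower, with 52.5% of all genes higher. The layer 6b gene Nxph4 had the smallest p, with a log2 fold change of -0.48 (SE 0.24, exact permutation p = 0.0773, limma adjusted p = 0.916), and Trib2 differed by -0.18 (SE 0.10, exact permutation p = 0.106, limma adjusted p = 0.924).

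Over both genotypes 0 of 34 members passed for IMN (0.274% of all genes, 70 genes), and 1, Rorb, had an unadjusted p under 0.05 (9.38% of all genes). In direction, 10 of 12 upper members were lower, and 5 of 9 layer 5 and 6 of 9 layer 6 members higher, with 49% of all genes higher. Otof differed by -0.66 (SE 0.45, limma adjusted p = 0.706) and Deptor by 0.15 (SE 0.11, limma adjusted p = 0.717). In the interaction of genotype and IMN 0 of 34 passed (0% of all genes) and 0 had an unadjusted p under 0.05 (3.2% of all genes). Its smallest p-values were those of Deptor at -0.28 (SE 0.21), Syt6 at -1.14 (SE 0.85) and Hs3st4 at -0.81 (SE 0.62), and their limma adjusted p-values were all 1.00. The interaction was negative for 8 of 9 layer 6 members (median -0.69), with 56.5% of all genes positive, and none of these members had an unadjusted p under 0.05. With covariates for the striatal and oligodendrocyte scores Syt6 was at -0.41 (SE 0.59) and Hs3st4 at -0.38 (SE 0.35).

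The sizes of these class medians, and some of their signs, changed with single libraries and with covariates for markers of neighbouring tissue. Without WT vehicle replicate 1 the sign was kept in 15 of 15 class medians. It was kept in 13 of 15 without Brd1+/- vehicle replicate 6 and in 14 of 15 without WT IMN replicate 7. Without the former, layer 6 for genotype over both treatments went from 0.03 to -0.03. Layer 5 for IMN in Brd1+/- mice went from -0.03 to 0.0009. Without the latter, layer 6 for IMN over both genotypes went from 0.06 to -0.03. For genotype over both treatments 7 of 12 upper members were higher without WT vehicle replicate 1, in place of 11. The 10 oligodendrocyte genes were all higher in Brd1+/- mice with vehicle (median log2 fold change 0.35) and with IMN in WT (0.66), as layer 6 members mostly were, and 12 of 12 striatal genes were higher in Brd1+/- mice with vehicle (0.43). For genotype with vehicle the median of layer 6 was 0.34 with all libraries, 0.60 without WT vehicle replicate 1 and 0.23 without Brd1+/- vehicle replicate 6. The count of upper members higher there was 8 of 12 with all libraries and 6 of 12 without WT vehicle replicate 1, with medians of 0.09 and 0.01. For IMN in WT the median of layer 6 was 0.33 with all libraries, 0.60 without WT vehicle replicate 1 and 0.12 without WT IMN replicate 7, and that of the upper members was -0.13, -0.23 and -0.08. For genotype under IMN the 9 of 9 lower layer 6 members became 5 of 9 without WT IMN replicate 7, and their median went from -0.36 to -0.06. In the interaction the layer 6 median was -0.69 with all libraries, -1.09 without WT vehicle replicate 1 and -0.32 without WT IMN replicate 7. With covariates for the striatal and oligodendrocyte scores 6 of 21 class medians had the opposite sign. The oligodendrocyte score had r = -0.845 with the axis, so these covariates also take out variation along the layers. The 2 cannot be told apart in such a fit. Under these covariates 9 of 9 layer 6 members were lower with IMN in WT (median -0.17), and the layer 6 median was 0.03 for genotype with vehicle and -0.16 in the interaction. Under 3 other scalings 21 of 21 class medians kept their sign, and the count of upper members higher with IMN in WT was 3 in place of 1.

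**Figure D4:**
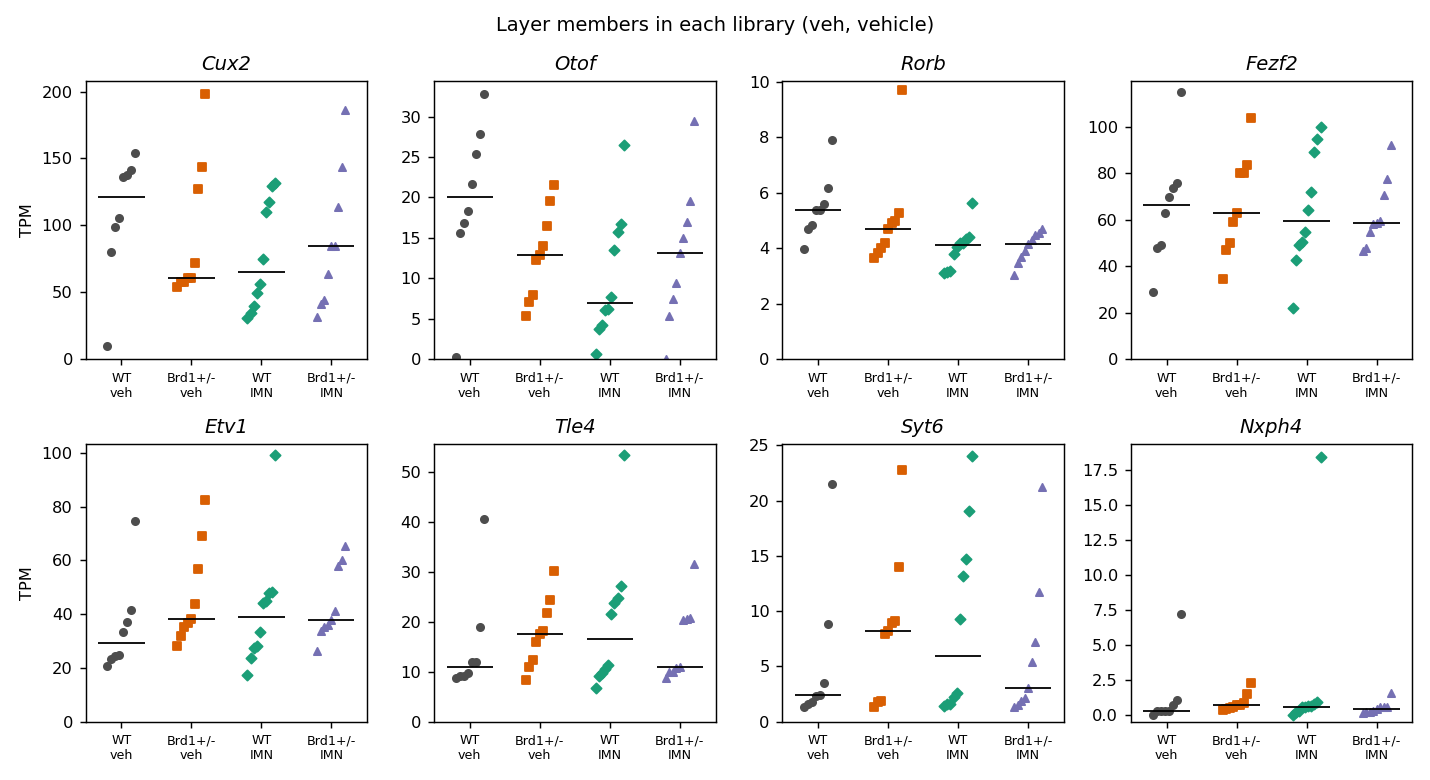
TPM of 8 members in each library by group, upper-layer genes first, with the group median as a line and the vertical axis of each gene from 0 (from just below 0 for Nxph4). Cux2, Otof, Tle4 and Syt6 overlap between all groups, Rorb lies lower with IMN in both genotypes with overlap, and Nxph4 is high only in WT vehicle replicate 1 and WT IMN replicate 7.

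The other genes of the figure are given by group for reference. Cux2 ran from 9.86 to 154 TPM (median 121) in WT vehicle, then 53.8 to 198 TPM (median 60.7) in Brd1+/- vehicle, then 30.7 to 132 TPM (median 65.3) in WT IMN and last 31.5 to 186 TPM (median 84.2) in Brd1+/- IMN. Otof ran from 0.248 to 32.8 TPM (median 20.0), 5.38 to 21.6 TPM (median 12.8), 0.577 to 26.5 TPM (median 6.95) and 0.0525 to 29.5 TPM (median 13.1) in the same order. For both, WT vehicle had the highest median and also the lowest or nearly the lowest library. Fezf2 ran from 28.7 to 115 TPM (median 66.1), 34.2 to 104 TPM (median 63.0), 22.0 to 99.7 TPM (median 59.6) and 46.7 to 92.1 TPM (median 58.5). Bcl11b had medians of 14.3, 18.4, 18.3 and 13.9 TPM, within a range from 6.00 to 37.9 TPM over all groups. Etv1 had medians of 29.1, 38.1, 38.8 and 37.8 TPM. As a ratio, the medians of Fezf2 were the closest to each other among these 3 layer 5 genes. Tle4 had medians of 10.9, 17.6, 16.5 and 10.9 TPM, Foxp2 0.939, 1.97, 2.33 and 1.02 TPM, and Tbr1 60.5, 78.7, 68.9 and 75.6 TPM. Nxph4 had medians of 0.292, 0.683, 0.587 and 0.423 TPM and Cplx3 4.89, 4.33, 5.13 and 5.79 TPM. Tle4 and Foxp2 were thus at their lowest medians in WT vehicle and Brd1+/- IMN.

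The precision differed widely between members. For genotype over both treatments the 95% interval of the log2 fold change reached from 0.12 on either side for Pou3f3 to 0.91 for Otof, with a median of 0.37. It lay within -0.5 and 0.5 for 18 of 34 members and within -1 and 1 for 32 of 34, and the counts were the same for IMN over both genotypes. In these pooled effects a 2-fold difference was thus outside the interval for most members. Smaller differences in Otof, Syt6, Foxp2 and Tshz2 were not detectable with these mice. In the other comparisons fewer intervals lay within -1 and 1. The count was 24 of 34 for genotype with vehicle and under IMN. It was 22 for IMN in WT, 27 for IMN in Brd1+/- mice and 17 for the interaction.

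**Figure D5:**
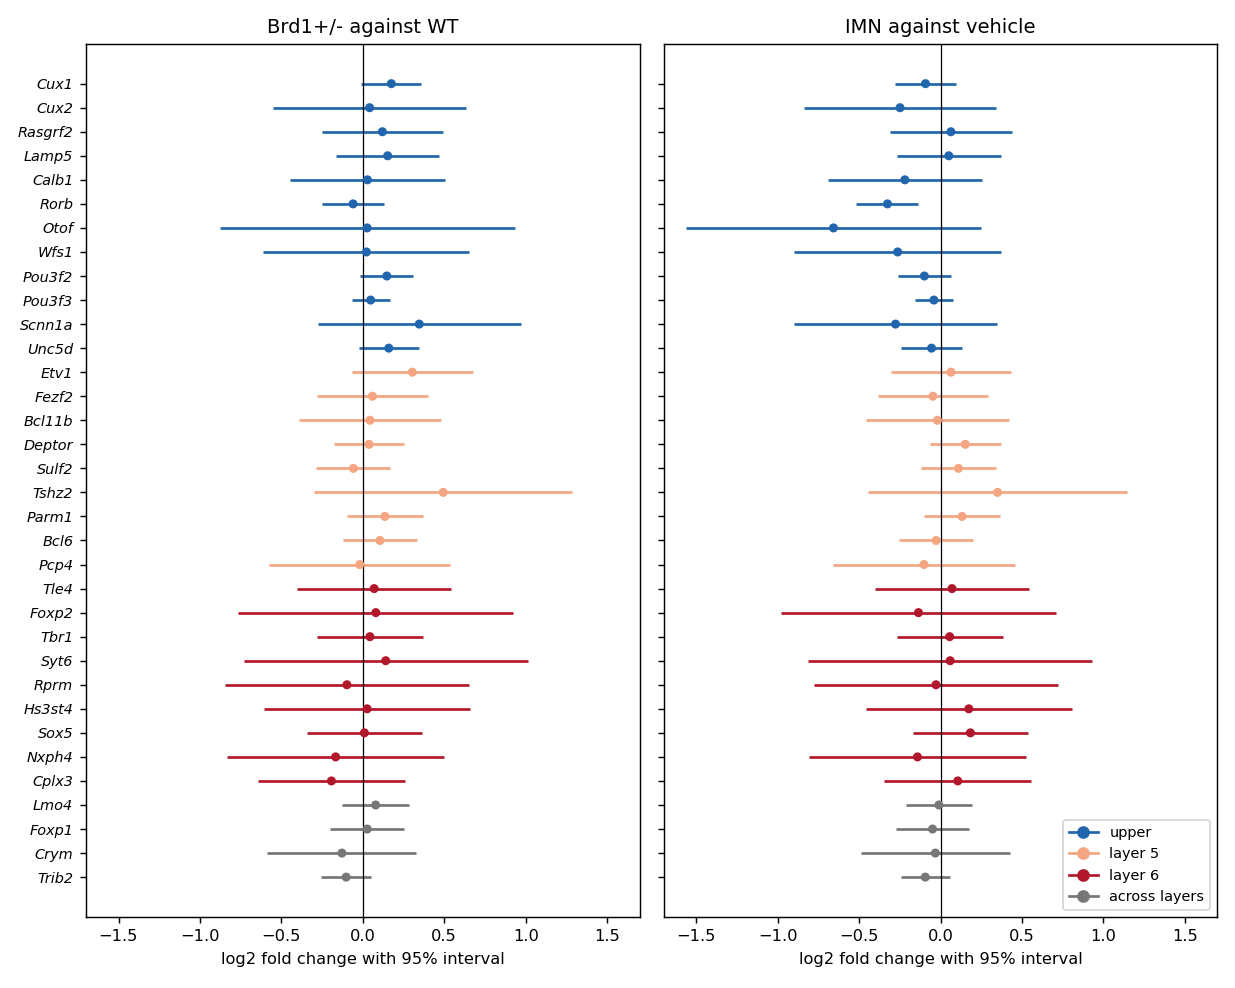
Log2 fold change with its 95% interval from limma for each of the 34 members, coloured by layer, for Brd1+/- against WT over both treatments (left) and IMN against vehicle over both genotypes (right). The interval of Rorb for IMN, from -0.52 to -0.14, is the only one of the 68 that leaves out 0, before adjustment for the number of genes tested.

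The counts without adjustment depended on WT vehicle replicate 1, which was also the lowest library on the axis. Without that library, genotype with vehicle gave 8 members with an unadjusted p under 0.05, where 6.61% of all genes had one. Otof was lower in Brd1+/- mice (log2 fold change -0.86, SE 0.26), and Deptor (0.24), Pcp4 (0.61), Tle4 (0.57), Foxp2 (1.07), Syt6 (1.09), Hs3st4 (0.82) and Nxph4 (0.60) were higher. All 7 of the latter are deep-layer genes, and the axis moved with them as given above. None passed adjustment, and the smallest limma adjusted p was 0.644. With Brd1+/- vehicle replicate 6 left out as well, 3 members had an unadjusted p under 0.05 (6.77% of all genes). IMN in WT gave 6 such members without WT vehicle replicate 1 (10.6% of all genes): Otof (-1.53), Wfs1 (-0.89), Cux2 (-0.82) and Rorb (-0.34) were lower, Hs3st4 (0.94) and Deptor (0.35) higher, and the smallest limma adjusted p was 0.272. Without the 3 libraries with the most Scnn1a, 1 member for genotype with vehicle (5.12% of all genes) and 2 for IMN in WT (5.87% of all genes) had an unadjusted p under 0.05, and again 0 passed adjustment.

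The further layer genes and the myelin genes were compared in the same fits. Of the 9 further upper genes 1 passed for IMN over both genotypes (0.274% of all genes did), and of the 18 further deep genes 0 passed in any comparison. The gene that passed was Inhba, which encodes the activin beta A subunit, a growth factor chain that neuronal activity is known to induce. Its medians were 5.43 TPM in WT vehicle, 4.62 TPM in Brd1+/- vehicle, 3.35 TPM in WT IMN and 2.87 TPM in Brd1+/- IMN. Over both genotypes it fell with IMN by 0.62 on the log2 scale (SE 0.14, limma adjusted p = 0.0425). Within genotypes, where it did not pass, the values were -0.58 in WT and -0.65 in Brd1+/- mice. That call was close to the threshold. It was kept in 6 of 10 alternatives (adjusted p from 0.00570 to 0.0632) and in 10 of 36 fits that left out 1 library (0.00774 to 0.0717). The 10 oligodendrocyte genes were all higher with IMN over both genotypes, with a median log2 fold change of 0.41, but 0 passed. Their summed level had medians of 396 TPM (vehicle) and 930 TPM (IMN) in WT mice and 569 and 706 TPM in Brd1+/- mice, and it moved with the axis as given above.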

How the data were processed

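RNA from 1 punch per mouse had been sequenced by the authors as single-end reads. Per the submitters' processing notes and the study's methods, reads were filtered (FastQC, Trimmomatic), aligned to GRCm38 with HISAT2 2.1.0 and quantified with StringTie 1.3.4. The deposited values are TPM made by the authors, 1 per gene and library, without scaling between libraries. The study's methods state only a minimum number of reads for all libraries and the total of each is not given in the sources used here, so errors below are the spread between mice, which the labels number as separate animals. Strand use and the handling of reads matching several genes are not stated, so near-identical stretches of related genes (Cux1 and Cux2, Pou3f2 and Pou3f3, Foxp1 and Foxp2) are uncertain.

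TPM were transformed as log2(TPM + 0.5), which understates changes of low genes. The 25572 genes that reached 0.1 TPM in 8 or more libraries were tested with limma 3.58.1 in R 4.3.3 (intensity trend, two-sided, Benjamini-Hochberg over all genes tested). Comparisons of 2 groups used only their libraries. The interaction and the pooled effects used all 36. That step was checked on simulated data. Single members were also compared by exact permutation of the libraries, two-sided, in Python 3.11.15 (scipy 1.17.1, numpy 2.4.6, pandas 2.3.3 and, for figures, matplotlib 3.10.9).

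The members, the other gene lists and the tests were chosen with earlier results of these data known. Named were all 34 members with their levels, fold changes of members past the threshold or else of the 3 with the smallest p-values per comparison, values by group for a fixed set of 11 members, and the 10 genes closest to each end of the axis. Inhba, and the members that changed without 1 library, were named after their values were seen. Alternatives were other pseudocounts (0.1 and 1), filters, scalings, weights, covariates, a replicate block and leaving out each library. The study's methods describe WT and Brd1+/- mice matched by litter, but the labels give no litter and do not say what replicate numbers mean. Mice were treated as unpaired after a check of same-numbered mice, given below. One gene of the excitatory marker list is not reported here, and the list was used without it.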

Additional observations from a re-analysis of the deposited data

Results flagged for a closer look

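In 37 of 152 sets of values (a gene or score within 1 group) the most extreme library lay farther from its neighbour than Dixon's 95% limit allows, where chance gives about 1 in 20. Of these, 16 were in WT vehicle replicate 1. Its upper score was 3.63, its layer 6 score 5.07 and its upper-minus-deep difference -1.68 (log2). It was the lowest of its group in Cux2 (9.86 TPM), Rasgrf2 (27.0 TPM), Calb1 (18.0 TPM), Otof (0.248 TPM), Wfs1 (11.6 TPM) and Lmo4 (203 TPM). It was the highest in Pcp4 (1398 TPM), Foxp2 (18.5 TPM), Rprm (79.7 TPM), Hs3st4 (80.7 TPM), Sox5 (21.9 TPM), Nxph4 (7.19 TPM) and Cplx3 (19.4 TPM).

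Brd1+/- IMN replicate 6 was flagged 8 times. It was lowest in Rasgrf2 (30.4 TPM), Calb1 (9.48 TPM), Otof (0.0525 TPM), Wfs1 (8.48 TPM), Lmo4 (226 TPM) and Crym (16.4 TPM), and highest in Scnn1a (17.8 TPM) and Parm1 (76.1 TPM). WT IMN replicate 7 was flagged for its layer 6 score (5.38, log2), Nxph4 (18.5 TPM) and Cplx3 (40.6 TPM). Brd1+/- vehicle replicate 7 was flagged for Lamp5 (482 TPM, high) and Foxp1 (27.7 TPM, low), and WT IMN replicate 3 for Scnn1a (6.91 TPM, high).

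The remaining libraries were flagged once or in a pair of genes. WT vehicle replicate 4 was low in Cux1 (20.6 TPM) and Pou3f3 (21.8 TPM), WT IMN replicate 4 in Calb1 (19.5 TPM) and WT IMN replicate 1 in Bcl6 (8.68 TPM). Brd1+/- vehicle replicate 1 had a low layer 5 score (4.66, log2). Brd1+/- vehicle replicate 5 was high in Rorb (9.69 TPM) and Brd1+/- IMN replicate 5 in Nxph4 (1.53 TPM).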

How the results depend on the processing

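No member passed an adjusted p of 0.05 in limma in any of the 7 comparisons, under any alternative listed above or without any 1 library. The counts at an unadjusted p under 0.05 did move, up to 8 for genotype with vehicle and 6 for IMN in WT without WT vehicle replicate 1, and up to 4 in each with array weights. Differences of the axis moved by less than its SD within groups under each alternative, but that SD is larger than the differences, and the sign of 4 of the 7 turned. With covariates for the striatal and oligodendrocyte scores IMN in WT went from -0.49 to 0.05, genotype with vehicle from -0.22 to 0.03 and IMN over both genotypes from -0.23 to -0.02. With layer 5 alone as the deep class IMN in Brd1+/- mice went from 0.02 to -0.10 and genotype over both treatments from 0.04 to -0.02. With the covariates the count of the 34 members that were higher went from 19 to 12 for IMN in WT, from 17 to 23 for genotype under IMN and from 10 to 18 for the interaction. The cause was not tested, and the oligodendrocyte score itself moved with the axis (r = -0.845). Leaving out 1 library the axis differences ran from -0.55 to -0.11 for genotype with vehicle, 0.11 to 0.43 for genotype under IMN, -0.82 to -0.32 for IMN in WT, -0.09 to 0.14 for IMN in Brd1+/- mice, 0.33 to 0.83 for the interaction, -0.38 to -0.14 for IMN and -0.10 to 0.11 for genotype over both. Rorb for IMN over both genotypes lay between -0.35 and -0.27 in those fits. Otof for IMN over both genotypes had values of -0.78 to -0.14 under the alternatives and of -0.94 to -0.42 without 1 library. Same-numbered mice did not deviate together (median correlation of deviations between -0.05 and -0.01 over the comparisons). With the replicate block the count of members called was 0 in all comparisons, and Foxp2 with Adora2a reached r = 0.36 (adjusted p = 0.0239). Leaving out libraries together (WT vehicle replicate 1 with Brd1+/- vehicle replicate 6, or the 3 with the most Scnn1a) was chosen after seeing the data. TPM carry no depth, so low genes such as Nxph4, Foxp2 and Scnn1a have no counting error here.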
